A study of Rattus norvegicus with 28 samples.

Results

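The 10 genes described here mark spinal interneurons and their peptide transmitters, and were followed through contusion injury of the rat spinal cord and transplantation of neural progenitor cells (NPCs). The genes, Gad1, Gad2, Gphn, Pvalb, Calb1, Calb2, Sst, Npy, Penk and Pdyn, were chosen by name with earlier results of these data known, and were found by their gene symbol in the array annotation. All 10 genes were on the array, with 14 of its 41012 non-control probes, among 35469 features after probes of one name were averaged. RNA came from 1.5 cm of spinal cord around the injury site of adult female Sprague Dawley rats, and was read on 28 single-dye arrays, 4 for each of 7 groups.

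The T0 group is labelled sham and is called uninjured in the study's text. Groups T1, T2, T4 and T8 received a 250 kdyn contusion at thoracic vertebra 8 and were taken 1, 2, 4 and 8 weeks later. The T1_NPC group received NPCs from adult rat spinal cord, injected at 2 points beside the injury, directly after the contusion and was taken at 1 week. The T2_NPC group received the same number of cells 1 week after the contusion and was taken at 2 weeks. The methods state that injured controls received cell-free medium, and that tacrolimus was given from the day before transplantation onwards.

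Inhibitory interneurons of the spinal cord make GABA from glutamate with the enzymes GAD67 (Gad1) and GAD65 (Gad2), and many of them release glycine. Gephyrin (Gphn) anchors the GABA and glycine receptors under the inhibitory synapse. The calcium-binding proteins parvalbumin (Pvalb), calbindin D28k (Calb1) and calretinin (Calb2), and the peptides somatostatin (Sst), neuropeptide Y (Npy), enkephalin (Penk) and dynorphin (Pdyn), mark partly overlapping classes of dorsal and ventral interneurons. These classes gate touch, pain and itch and shape locomotor output. Some of the proteins are also found outside interneurons: parvalbumin in proprioceptive sensory neurons and fast muscle fibres, and gephyrin in many other tissues.

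The following oligonucleotides, from the array annotation, show which part of the message carried the signal where it lies in the coding region. The capitals mark the codons of the Met-enkephalin sequence, YGGFM, in the Penk probe and the stop codon in the Sst probe. The codons that follow YGGFM, cgg and ttt, encode arginine and phenylalanine. Of the Sst probe, the first 36 of 60 bases are given.
Gad1 (probe A_44_P115461): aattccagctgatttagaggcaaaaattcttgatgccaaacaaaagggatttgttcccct
Gad2 (probe A_44_P554928): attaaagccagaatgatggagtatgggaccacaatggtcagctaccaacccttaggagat
Gphn (probe A_44_P189043): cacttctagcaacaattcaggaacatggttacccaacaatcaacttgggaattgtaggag
Penk (probe A_42_P749184): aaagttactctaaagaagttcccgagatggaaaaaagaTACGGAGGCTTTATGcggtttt
Sst (probe A_44_P242103): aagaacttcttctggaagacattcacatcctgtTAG
On the rat build rn4, these probes lie at chr3:52815087-52817521, chr17:96321562-96321621, chr6:101233721-101233780, chr5:17509637-17509696 on the minus strand and chr11:79126027-79126086. The Gad1 probe covers 2435 bases of the genome with 60 bases of sequence, so it crosses at least 1 intron. The single Calb1 probe, at chr5:30475783-30475991, covers 209 bases in the same way.

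Before any group was compared, the scanner outputs were set against the deposited table of normalized values, and for 16 of the 28 arrays they named different samples. The spots of every table column were ranked exactly as in a single scanner output (Spearman correlation 1, and 0.993 or less with all others), which for those 16 columns had been deposited for another sample. The values below are those of the table. The arrays on which both sources named the same sample were replicates 1 and 3 of T0, 1 of T1, 2 and 3 of T2, 4 of T4, 2 and 4 of T8 and all 4 of T2_NPC. By the matched outputs, the injury time course was read in scan sessions 1 and 2, each holding arrays of all 5 groups, and both transplanted groups in session 3, each on a slide of its own. Transplantation therefore cannot be told apart from slide and session. Replicate 2 of T1_NPC stood apart from the rest of its group in some markers of other cells. The mean of 8 microglia and macrophage genes was 10.87 there and 12.13 to 12.35 on the other 3 arrays, that of 6 meningeal and fibroblast genes was 11.83 against 13.07 to 14.13, and that of 7 lymphocyte genes was 4.90 against 6.59 to 7.10. Its general neuron genes, at 12.94, were the highest of the group. Over the T0 arrays these lists ranged from 9.44 to 9.60, 10.25 to 10.74, 3.73 to 4.24 and 13.43 to 13.75. Replicate 2 thus lay between T0 and the rest of its group on each of these lists. On a list of 5 Schwann cell genes it lay within its group. It was at 10.09 there, the other 3 arrays at 10.08 to 11.60 and the T0 arrays at 7.99 to 8.39. The scanner outputs matched to replicates 1 to 4 of T1_NPC had been deposited for T1, T0, T8 and T4, in that order. Which label is right was not tested. Between 74.5% and 82.7% of the spots of an array were well above background, and no non-control spot was saturated.

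All 10 genes had a lower mean after injury than at T0, at every one of the 4 times. Levels are log2 values after quantile normalization, and differences are in log2 units with the standard error of the limma fit. At T1 the median difference of the 10 genes from T0 was -1.31 (range -2.60 to -0.30), against -0.10 over all features. At T2, T4 and T8 the medians were -1.28, -1.33 and -1.25. A feature was called when its limma p, adjusted by the Benjamini-Hochberg method over all features, was under 0.05. By that rule all 10 genes were called lower than T0 in T8, and 9 of them in each of T1, T2 and T4. The share of all features called lower was 25.1% (T1), 22.2% (T2), 21.0% (T4) and 21.5% (T8). Since the genes were picked with results of this comparison in view, their differences from T0 are given as a description and nothing is read from the counts.

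**Figure D1:**
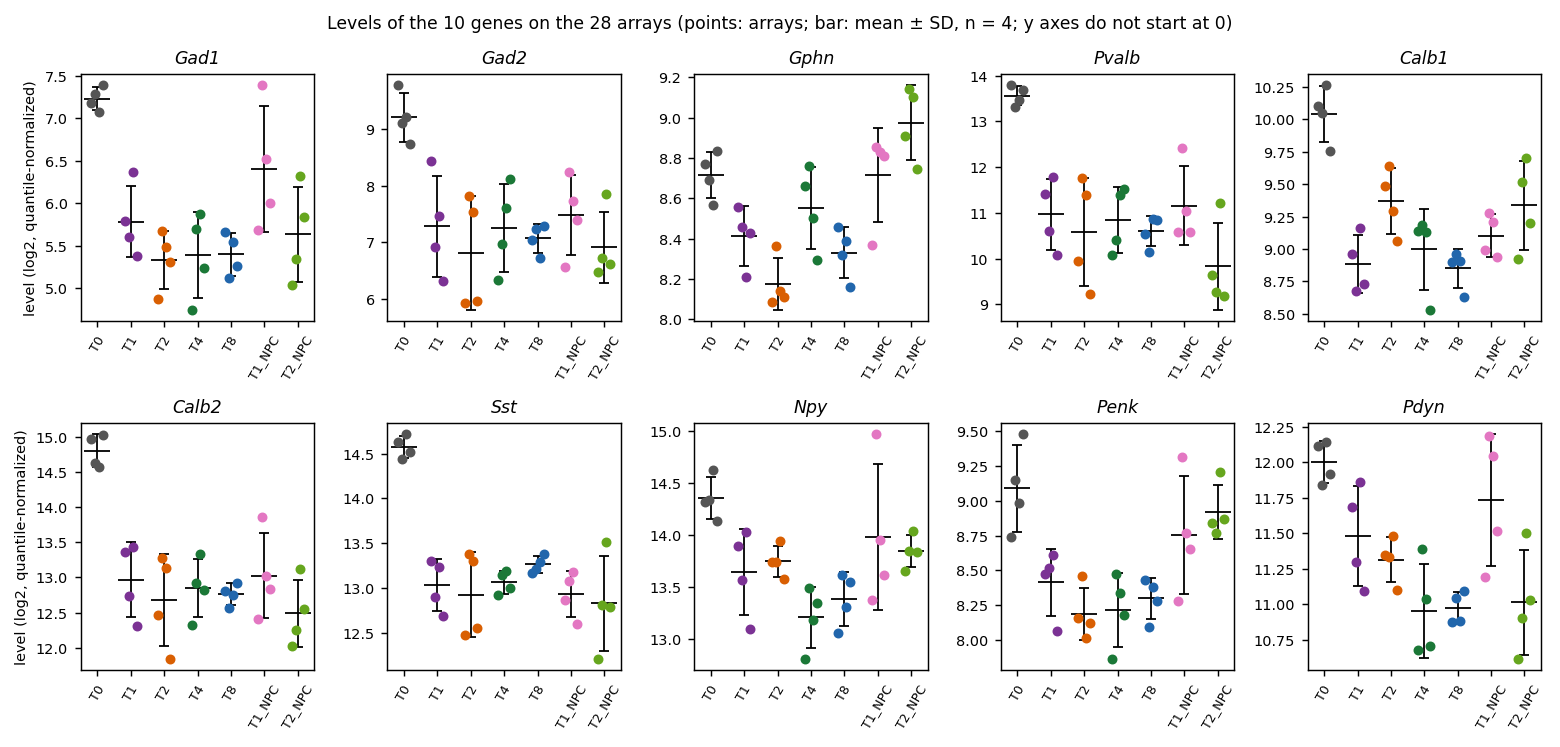
Level of each of the 10 genes (log2, vertical axis) on every array, by group (horizontal axis); points are arrays, and the bar is the mean ± SD of 4. For Gad2, Pvalb, Calb1, Calb2 and Sst every injured array, transplanted or not, lies below all T0 arrays.

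Pvalb stood furthest below T0. Its values at T0 were 13.79, 13.32, 13.46 and 13.69 in replicates 1 to 4. At T1 they were 11.42, 10.60, 11.78 and 10.07, and at T8 they were 10.55, 10.15, 10.87 and 10.84. Every injured array lay below every T0 array, and the 4 arrays of T8 were closer together than those of T1 or T2. The log2 difference from T0, with an SE of 0.53 at each time, began at -2.60 in T1, stood at -2.98 in T2 and -2.72 in T4, and ended at -2.97 in T8. On the linear scale 16.5% of the T0 level was left in T1 and 12.8% in T8. In these bulk samples, fewer cells of a type and less RNA per cell cannot be told apart. Fast muscle also makes parvalbumin, so 12 skeletal muscle genes were read beside it, of which 10 were well above background in at least 1 group. Their mean level ranged from 6.69 to 6.93 over the T0 arrays, 6.66 to 6.81 over T1 and 6.67 to 6.83 over T8. Single muscle genes moved both ways at T1, with Tnnc2 (fast troponin C) at -3.15 ± 0.47 and Acta1 (skeletal actin) at 1.95 ± 0.21, and 4 were called lower and 4 higher. Of 7 markers of sensory ganglion neurons, 4 were called lower at T1 and none higher. The part of either tissue in the Pvalb difference was not tested.

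Calb2 and Calb1, the other calcium-binding proteins, differed in how far they stood below T0. Calb2 was between 14.57 and 15.03 at T0, and its values were 13.36, 12.74, 13.44 and 12.31 at T1 and 12.81, 12.56, 12.75 and 12.93 at T8. The groups did not overlap, and the difference from T0 was -1.84 ± 0.32 at T1 and -2.04 ± 0.32 at T8, the latter being 24.4% of the T0 level. Calb1 was between 9.75 and 10.26 at T0, and its values were 8.96, 8.68, 9.16 and 8.73 at T1 and 9.49, 9.64, 9.29 and 9.06 at T2. Its difference from T0 was -1.16 ± 0.18 at T1, -0.67 ± 0.18 at T2 and -1.19 ± 0.18 at T8. The array also holds 3 probes for calbindin D28 under a sequence accession rather than the symbol, and their mean differed from T0 by -1.32 ± 0.18 at T1, -1.14 ± 0.18 at T2 and -1.36 ± 0.18 at T8. Of 9 further neuronal calcium-sensor and calcium-buffer genes, all 9 were called lower at T1 and at T8, with Vsnl1 (visinin-like 1) at -2.21 ± 0.40 and Pcp4 at -1.94 ± 0.41 at T1.

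The GABA-synthesising enzymes were both below T0 throughout. Gad2 was 9.78, 9.12, 9.22 and 8.74 at T0, 8.44, 6.92, 7.47 and 6.33 at T1, and 7.04, 7.23, 6.73 and 7.29 at T8. Its arrays within T1 spanned more than 2 log2 units, yet none reached the T0 range. The difference had an SE of 0.48 and lay between -2.40, in T2, and -1.93, in T1. Gad2 also moved with the scan session: in all 5 groups of the time course, every array of session 1 lay above every array of session 2, by 1.07 on average. For the other 9 genes, this average was between -0.11 (Penk) and 0.68 (Pvalb), and for the mean of the 13 general neuron genes it was 0.20. The difference of the 10 genes from T0 was also read within each session, where T0 had 2 arrays. At T1 the median was -1.14 within session 1 (1 T1 array) and -1.29 within session 2 (3 T1 arrays). At T8 it was -1.38 and -1.15 (2 T8 arrays each), with all 10 lower each time. In session 1 both sources named the same sample for every time-course array, and in session 2 for none. Session and this disagreement over samples cannot be told apart.

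Gad1 was read by 3 probes. Their mean was 7.18, 7.29, 7.08 and 7.39 at T0, 5.79, 5.60, 6.37 and 5.38 at T1, and 5.66, 5.12, 5.54 and 5.26 at T8. The groups did not overlap, and the difference was -1.45 ± 0.32 at T1 and -1.84 ± 0.32 at T8. The probe at base 2076 of the transcript, well above background on every array, differed by -1.84 at T1 and -2.28 at T8. The probes at bases 853 and 1136 differed by -1.21 and -1.31 at T1. The first was not well above background on some arrays of T2, T4 and both transplanted groups, and the second on 1 array of T1_NPC.

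Gphn differed least from T0. Its 2 probes averaged 8.77, 8.69, 8.57 and 8.83 at T0, 8.56, 8.46, 8.21 and 8.43 at T1, and 8.09, 8.37, 8.14 and 8.11 at T2. The difference was -0.30 ± 0.13 at T1, which was not called, and -0.54 ± 0.13 at T2, -0.16 ± 0.13 at T4 and -0.38 ± 0.13 at T8. At T4 the arrays overlapped those of T0. Both probes were below T0 at each of these times.

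Other genes of the inhibitory synapse were mostly lower than at T0. Of 6 further presynaptic genes measured, 6 were called lower at T1 and 6 at T8, including Slc6a5, the neuronal glycine transporter (-2.20 ± 0.53 at T1), and Slc32a1, the vesicular GABA and glycine transporter (-1.87 ± 0.42). Of 18 receptor subunits and scaffold genes, 16 were called lower at T1 and 15 at T8, and none higher, with differences from -2.38 to 0.0069 at T1. Gabra5 was lowest at both times, at -2.38 ± 0.29 and -2.62 ± 0.29, and the glycine receptor subunit Glra2 was at -2.50 ± 0.40 at T8. The medians of these lists at T1, -1.45 and -1.51, were close to that of 13 general neuron genes, -1.35, all 13 of which were called lower. Of 3 excitatory genes listed, 1 was called lower at T1, and the median of the list was -0.68. The gene called was Slc17a6, the vesicular glutamate transporter of excitatory spinal neurons, at -2.01 ± 0.39. The 8 markers of microglia and macrophages were all called higher at T1, with Cd68 at 7.05 ± 0.16, and their part in these differences was not tested.

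**Figure D2:**
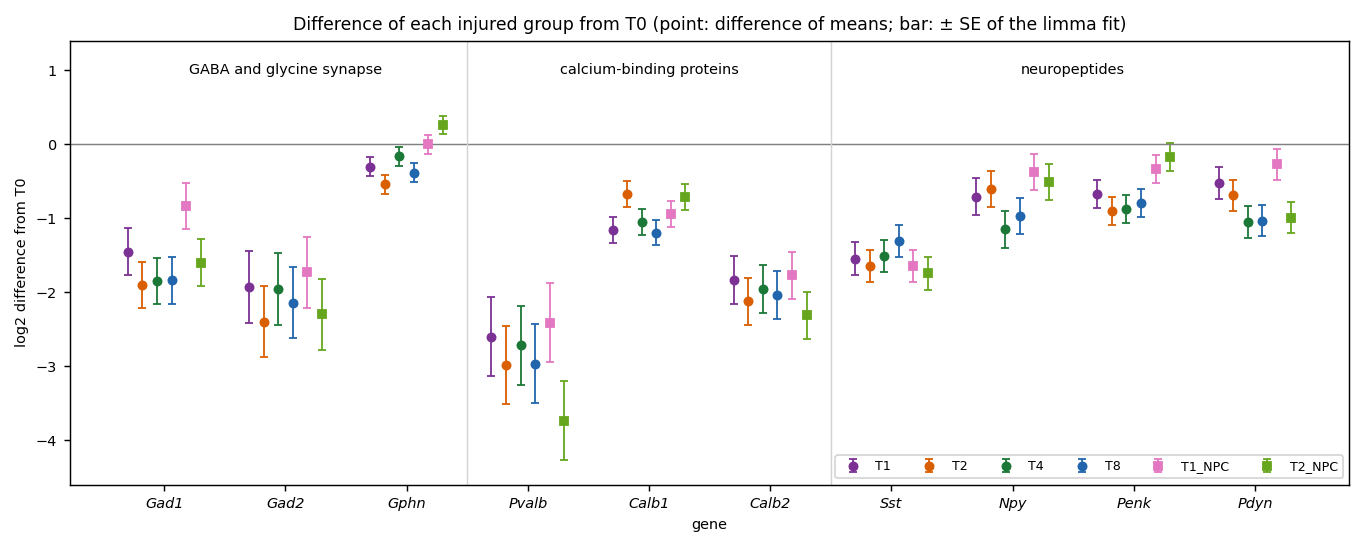
Difference of each injured group from T0 (log2, vertical axis) for the 10 genes (horizontal axis), with the SE of the limma fit as bars; circles are injured groups and squares transplanted groups. The points of Pvalb lie between -3.74 and -2.41, those of Gphn between -0.54 and 0.26.

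Among the peptide genes, Sst had the lowest mean difference from T0 at each time, although at T8 the Penk probe over the Met-enkephalin codons, at -1.43, lay below Sst, at -1.31. Sst was read by 1 probe printed on 10 spots, whose values within an array had a median SD of 0.05. Sst was 14.62, 14.44, 14.72 and 14.52 at T0, 13.30, 12.90, 13.24 and 12.68 at T1, and 13.17, 13.21, 13.29 and 13.38 at T8. The groups were more than 1 log2 unit apart, and the T8 arrays were the closest together. The difference, with an SE of 0.22, lay between -1.65, in T2, and -1.31, in T8, where 40.3% of the T0 level was left.

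Npy, also on 10 spots (median SD 0.06), was 14.32, 14.34, 14.63 and 14.14 at T0 and 13.89, 13.57, 14.03 and 13.10 at T1. At T4 it was 12.81, 13.49, 13.19 and 13.35, the lowest group mean of the 7. The SE of its differences was 0.25. They were smaller in T1 (-0.71) and in T2 (-0.61, not called) than in T4 (-1.15) and T8 (-0.97). None of the arrays of these groups reached the T0 range.

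The opioid peptide genes showed smaller differences at T1 than Sst. Pdyn was 12.12, 11.84, 12.15 and 11.92 at T0, 11.68, 11.29, 11.86 and 11.09 at T1, and 10.88, 11.04, 10.88 and 11.09 at T8. Replicate 3 of T1 lay inside the T0 range, and no T8 array did. With an SE of 0.21, the difference was -0.52 in T1 and -0.69 in T2, and -1.05 and -1.03 in the later groups T4 and T8. Penk was read by 2 probes, of which only one was well above background on every array. This probe, over the Met-enkephalin codons, was 13.42, 13.57, 13.73 and 13.87 at T0, 12.67 ± 0.41 (SD, n = 4) at T1, and 12.20, 11.97, 12.36 and 12.35 at T8. It did not overlap with T0 at either time, and its difference was -0.98 at T1 and -1.43 at T8. The probe at base 130 was at 4.05 to 5.09 at T0, was well above background on only 2 of those 4 arrays, and differed by -0.37 at T1 and -0.16 at T8. The mean of both, -0.67 ± 0.19 at T1 and -0.79 ± 0.19 at T8, therefore stands nearer to 0 than the probe over the Met-enkephalin codons.

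Other neuropeptide genes were less uniform. Of 14 measured, 8 were called lower and 3 higher at T1, and 11 lower and none higher at T8. Nmu (neuromedin U) was at -1.99 ± 0.31 and Cartpt at -1.86 ± 0.35 at T1. Trh (thyrotropin-releasing hormone) was at 2.45 ± 0.35 and Calcb, a calcitonin gene-related peptide gene, at 0.90 ± 0.32. Of 12 receptors for the peptides, 7 were called lower and 1 higher at T1. The somatostatin receptor Sstr1 was at -2.15 ± 0.23, the neuropeptide Y receptor Npy5r at -2.06 ± 0.26 and the delta opioid receptor Oprd1 at 0.98 ± 0.35. Of 10 genes for peptide processing and dense-core granules, 9 were called lower at T1 and 6 at T8, with Chga (chromogranin A) at -1.78 ± 0.33 and Scg5 at -1.72 ± 0.37 at T1. Of 14 transcription factors of interneuron classes, 6 were called lower at T1.

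Each array was also read against the mean of 13 general neuron genes, such as Snap25 and Nefl, which was 13.43 to 13.75 over the T0 arrays, 11.76 to 12.49 over T1 and 11.67 to 12.09 over T8. After this mean was subtracted, the 10 genes divided. At T1, Pvalb stood at -1.17, Gad2 at -0.50 and Calb2 at -0.41 relative to T0, and Gad1 and Sst were at -0.02 and -0.11. Calb1 was at 0.27, Npy at 0.72, Penk at 0.76, Pdyn at 0.91 and Gphn at 1.13. The values of Gad1 and Penk are means that include dim probes. By the probe well above background on every array, each stood further below T0 at all 4 times than by the mean. Each would therefore lie lower on this scale by that probe alone, which was not set against the neuron list. Pvalb, Gad2, Calb2 and Gad1 were below 0 and Calb1, Gphn, Npy, Penk and Pdyn above 0 at all 4 times, while Sst ranged from -0.11 at T1 to 0.37 at T8. On this scale 5 of the 10 genes were called at T1, 1 lower and 4 higher, and 5 at T8, 1 lower and 4 higher. Of all features, 77.3% were called higher and 0.88% lower at T1, and 87.6% higher and 0.913% lower at T8. The median of the 10 genes was 0.13 at T1 and 0.43 at T8, against 1.33 and 1.64 over all features. The genes were chosen with their differences from T0 known, so nothing is read from these counts or medians. Every value on this scale is set against a list whose own level was lower than at T0.

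**Figure D3:**
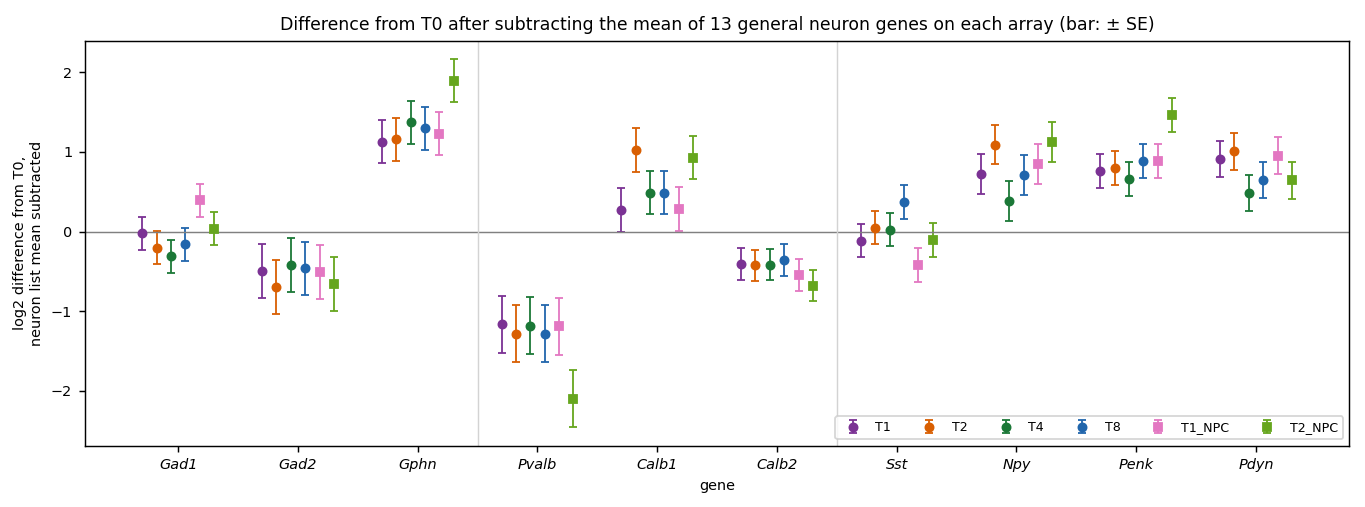
Difference from T0 (log2, vertical axis) after the mean of 13 general neuron genes was subtracted on each array, for the 10 genes (horizontal axis), with the SE as bars. Pvalb, at -1.17 at T1, lies below 0 in every group, and Npy, Penk, Pdyn and Gphn lie above 0 in every group.

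From T1 on, no change between time points passed the test for any of the 10 genes. By the limma fit, 0 of 10 were called for T2 against T1, T4 against T2, T8 against T4 and T8 against T1, where 1.48%, 0.0761%, 0.0902% and 9.87% of all features were called. At an unadjusted p under 0.05 there were 1, 3, 0 and 1 of the 10 genes. The smallest adjusted p over 8 weeks belonged to Pdyn, which was 0.51 ± 0.21 lower at T8 than at T1 in log2 units (95% interval of the difference -0.95 to -0.07, limma adjusted p = 0.152), and its T8 and T1 arrays met without overlapping. With scan session as a block the difference was -0.54 (limma adjusted p = 0.0358). Calb1 was higher at T2 than at T1 by 0.49 ± 0.18 (interval 0.13 to 0.85, limma adjusted p = 0.182). The mean of the 3 further calbindin D28 probes differed there by 0.18 ± 0.18 (limma adjusted p = 0.732). The intervals for the widest spread genes were broad: for Gad2 at T8 against T1 the interval was -1.21 to 0.78, and for Pvalb it was -1.47 to 0.73, so changes of 1 log2 unit in Gad2 or Pvalb downwards are within them.

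In the same comparison of T8 with T1, several related genes did change. Of the 14 other neuropeptide genes, 4 fell between T1 and T8, with differences of -2.27 ± 0.35 for Trh, -2.23 ± 0.36 for Vip, -2.06 ± 0.32 for Calcb and -1.57 ± 0.34 for Crh, the last of which was named after its value was seen. Of the 18 receptor and scaffold genes, 3 rose: Gabra2 by 0.79 ± 0.19, Gabrg1 by 0.71 ± 0.21 and Gabrb1 by 0.59 ± 0.14. These 3 were also named after their values were seen. Scg2 (secretogranin II) rose by 0.93 ± 0.21.

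Transplantation was compared with the injured group of the same week. For T1_NPC against T1, 0 of the 10 genes were called by limma and 1 had an unadjusted p under 0.05, while 11.9% of all features were called. Of the 10 means, 9 were higher in T1_NPC, by a median of 0.24. Without replicate 2 of T1_NPC, which stood apart in some markers of other cells, 6 were higher and the median was 0.05. The part of those markers in the shift was not tested. For T2_NPC against T2, 2 of the 10 genes were called, both higher, beside 9.47% of all features, and the median was 0.03.

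Gphn was the gene that differed most clearly. It was 8.91, 9.14, 9.11 and 8.75 in T2_NPC, against 8.09, 8.37, 8.14 and 8.11 in T2. All 4 transplanted cords lay above all 4 injured ones. The difference was 0.80 ± 0.13 (95% interval 0.54 to 1.06, limma adjusted p = 0.000354). Both probes were called, with 0.68 for the probe at base 2419 and 0.93 for the probe at base 1728 printed above. After the neuron list was subtracted the difference was 0.74 and was not called (limma adjusted p = 0.372). In T1_NPC, Gphn was 8.37, 8.86, 8.83 and 8.81, of which replicate 1 stood inside the T1 range, and the difference from T1 was 0.30 ± 0.13 (interval 0.04 to 0.57, limma adjusted p = 0.120). The probe at base 1728 alone was called there, at 0.51 (limma adjusted p = 0.0271), and without replicate 1 of T1_NPC the mean of both probes was called, at 0.42 (limma adjusted p = 0.0275).

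Penk was called higher in T2_NPC than in T2, at 0.73 ± 0.19 (limma adjusted p = 0.0168), but of its probes only the dim one at base 130 was called. The probe at base 130 was 5.53, 5.41, 5.22 and 5.27 in T2_NPC and 4.33, 4.16, 3.30 and 4.24 in T2, a difference of 1.35 (limma adjusted p = 0.000364). The probe over the Met-enkephalin codons was 12.14, 12.12, 13.19 and 12.46 in T2_NPC and 11.98, 12.75, 12.73 and 12.01 in T2, a difference of 0.11 (limma adjusted p = 0.863). The groups overlapped on the probe over the codons and not on the dim one. After the neuron list was subtracted the mean of both probes differed by 0.67 and was not called (limma adjusted p = 0.270).

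Gad1 had the largest difference for T1_NPC against T1, at 0.62 ± 0.32 (interval -0.04 to 1.27, limma adjusted p = 0.215). Its values in replicates 1 to 3 of T1_NPC were 5.68, 7.39 and 6.53, with replicate 4 between the first and the last of these, and replicate 2 lay at the top of the T0 range. The probe at base 2076 was called on its own at 0.96 (limma adjusted p = 0.0355), with replicate 2 at 9.36 and the other 3 arrays between 7.62 and 8.41, and the probes at bases 853 and 1136, at 0.56 and 0.33, were not. Without replicate 2 the difference of Gad1 was 0.29. Replicate 2 was the highest of its group in 9 of the 10 genes, as was replicate 3 in T2_NPC. The other differences were smaller than their intervals: Pvalb was at 0.18 (interval -0.92 to 1.29) for T1_NPC against T1 and at -0.75 (interval -1.85 to 0.35) for T2_NPC against T2, and Sst at -0.10 (interval -0.56 to 0.35) and -0.10 (interval -0.55 to 0.36).

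**Figure D4:**
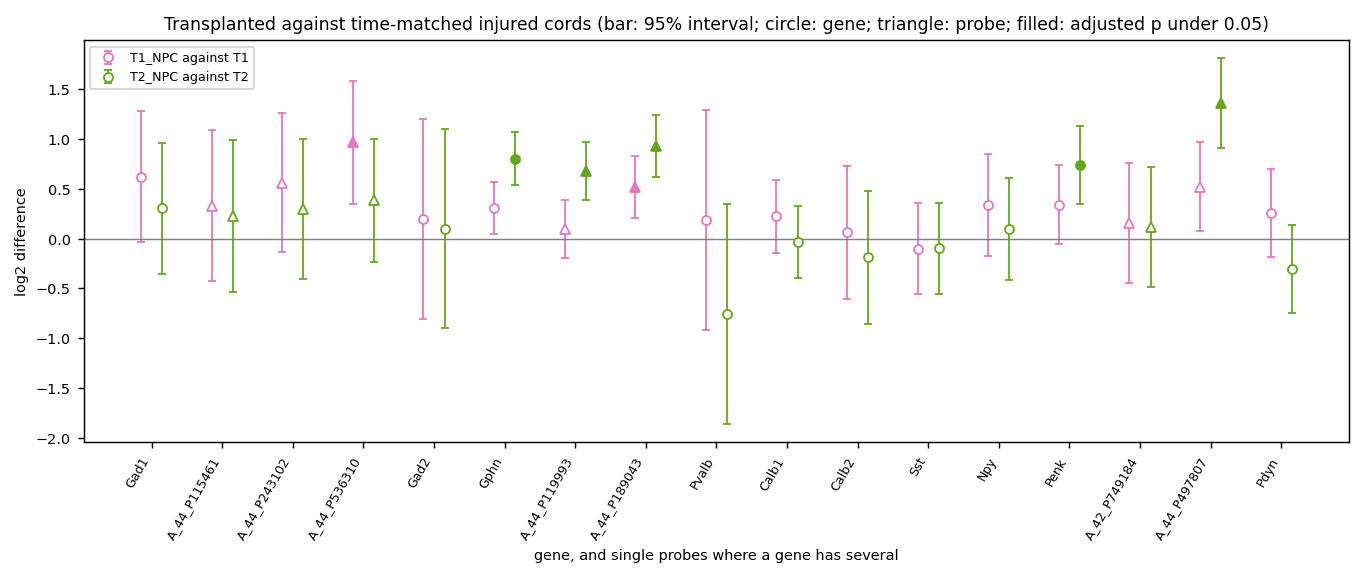
Difference between transplanted and injured cords of the same week (log2, vertical axis) for the 10 genes and, where a gene has several probes, for each probe (horizontal axis); bars are 95% intervals and filled symbols have a limma adjusted p under 0.05. Gphn, at 0.80 for T2_NPC against T2, is filled for the gene and both probes, whereas Penk, at 0.73, is filled for the gene and the dim probe, at 1.35, and open for the probe over the Met-enkephalin codons, at 0.11.

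Whether the 2 transplantation differences themselves differed was tested as an interaction. None of the 10 genes was called, 1 had an unadjusted p under 0.05, and 0.299% of all features were called. Gphn had the smallest adjusted p, with a larger difference in T2_NPC by 0.50 ± 0.18 (limma adjusted p = 0.280). Against T0, 6 of the 10 genes were called lower in T1_NPC and 7 in T2_NPC, beside 29.9% and 26.5% of all features called lower. Without replicate 2 of T1_NPC, 8 were called in that group. Of all 35469 features, 18736 were then called in either direction, 10616 of them lower. In T2_NPC, Pvalb was at -3.74 ± 0.53 and Gphn at 0.26 ± 0.13 relative to T0.

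Some related genes were called with transplantation. Of 10 genes for peptide processing, 2 were called higher and 1 lower at 1 week, beside 11.9% of all features. Of 14 transcription factors of interneuron classes, 1 was called higher and 3 lower at 2 weeks, beside 9.47% of all features. Of 6 inhibitory presynaptic genes and 14 other neuropeptide genes, none was called in either comparison. Nothing is read from these counts. Sstr4, a somatostatin receptor, was higher in T1_NPC than in T1 by 1.12 ± 0.13 (limma adjusted p = 5.12e-06), and the difference at 2 weeks was smaller by 0.98 ± 0.18 (limma adjusted p = 0.0129). Scg2 was higher in both comparisons, by 0.78 ± 0.21 and 0.74 ± 0.21, and the interneuron factor Pax2 was lower in both, at -0.84 ± 0.21 and -0.75 ± 0.21. At 1 week Pam, the enzyme that amidates peptides, was higher by 0.48 ± 0.15 and Chgb was at -1.09 ± 0.31. At 2 weeks Lhx1 was higher by 1.26 ± 0.31, while En1 was at -0.77 ± 0.15, Pou4f1 at -1.01 ± 0.22 and the GABA receptor subunit Gabrb2 at -0.83 ± 0.19. None of the 13 general neuron genes was called in either comparison. Among markers of other cells, the myelin genes Mbp and Mobp were higher in T2_NPC than in T2 by 1.43 ± 0.27 and 0.70 ± 0.21, and Myh4, a muscle myosin, by 1.81 ± 0.50. Their part in the Gphn and Penk differences was not tested.

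The order of the 7 groups differed between genes. T0 was highest for 9 of the genes, while for Gphn it came after T2_NPC and T1_NPC. For Gad2, Pvalb, Calb1, Calb2 and Sst the T0 arrays were apart from the next group, and for Gad1, Npy, Penk and Pdyn they overlapped it. All other neighbouring groups overlapped for every gene. Among the 10 genes, Gad2 and Calb2 were the most alike, with a root mean square difference of 0.10 between their 7 centred group means. Over 10645 named features outside the gene lists, the closest profile to Sst was that of Slc25a23 (0.05), to Gphn that of Cpd (0.05), to Calb2 that of Slc12a5 (0.06), to Gad2 that of Grm4 (0.08) and to Penk that of Pcyt2 (0.08). Those closest to Pdyn, Npy, Calb1 and Pvalb were Ppef2 (0.09), Mrgpre, Abo2 and Gng13, the last 3 at 0.11, 0.11 and 0.14. Likeness over 7 group means that share a single large step from T0 is a description only.

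Promoter sequence was given for 7 of the 10 genes in RefSeq (build GRCr8, from 250 bases before to 50 after each start), and not for Calb1, Calb2 or Penk. The palindrome TGACGTCA, the cAMP response element first described in Sst, was found in Sst alone, and in 1.83% of all 33469 promoters. Its 30-base surroundings at chr11:90461526-90461555, with the element in capitals, are given because cAMP signalling is the subject of the study.
Sst: gatctgggggcgcctccttggcTGACGTCA
By the start annotated in RefSeq, which was not checked against other start sites, the element began at base 3 of the transcript. Its CGTCA part, searched on both strands and also contained in TGACGTCA, was in 2 of the 7 (Sst and Pvalb) and in 21.2% of all promoters, and TATAAA was in 2 (Gad1 and Pdyn) and in 14.2%.

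The counts depended on which samples the scanner outputs were given. On the 12 undisputed arrays, where T1 and T4 had 1 array each and are assumed to vary like the other groups, 3 of the 10 genes were called against T0 at T1, 7 at T2, 6 at T4, 9 at T8 and 8 in T2_NPC. Of all features 30.8%, 33.6%, 26.6%, 37.5% and 52.4% were called there, so that the share at T1 was near that of all features. These shares count features called in either direction. For T2_NPC against T2, Gphn (0.72) and Penk (0.68) were both called on these arrays, beside 20.9% of all features. When each scanner output was instead kept with the sample it was deposited for, none of the 10 genes was called in any comparison, and of all features 0 were called at T1, T4 and T8 and 1 at T2 against T0, with 2428 at an unadjusted p under 0.05 at T1.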

How the data were processed

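Total RNA was labelled with 1 dye and hybridized to whole-genome rat arrays with 45018 spots. The authors deposited scanner output with intensity values per spot, background-corrected by Agilent Feature Extraction (version 10.7.1.1 per the file headers), and a table of log2 values after quantile normalization between arrays. Groups came from the labels. Spots of one probe, then probes of one gene name, were averaged, and limma 3.58.1 in R 4.3.3 fitted 7 group means over all 28 arrays and 35469 features, with Benjamini-Hochberg adjustment (threshold 0.05). The intervals use 23.3 degrees of freedom. The number of arrays limits the precision, and replicates are 4 animals per group by the study's methods. The script was tested on simulated data.

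The genes and lists were chosen with earlier results of these data known. Named genes of other lists were the 2 called furthest lower and 2 called furthest higher at T1 and T8 against T0, those called between transplanted and injured groups, and the closest profiles. Of the listed symbols, 9 were not found on the array by name. Replicate numbers did not pair the arrays: 5 of 28 correlated best with their own number. Alternatives covered the scanner outputs, background correction, scaling, probe choice, blocks and single arrays. The scanner outputs held the mean signal for 8 arrays only, so the median signal was used for background correction. Some genes that these rules name are not reported here.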

Additional observations from a re-analysis of the deposited data

Results flagged for a closer look

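In 2 of 70 sets of 4 arrays, 10 genes by 7 groups, 1 array lay far from the other 3 by Dixon's test, where chance alone flags about 1 in 20. Calb1 was 8.53 in replicate 4 of T4, and the nearest other array of that group was at 9.13. Gphn was 8.37 in replicate 1 of T1_NPC, and the nearest other array was at 8.81. No gene was set apart by the test of whether the transplantation differences at 1 and 2 weeks differed.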

How the results depend on the processing

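For the counts of the 10 genes called, scanner outputs under their deposited samples gave 0 against T0 at T1, T2, T4 and T8 and in T1_NPC and T2_NPC, and 0 for T2_NPC against T2, where the difference was 0.58 for Gphn and 0.43 for Penk. The undisputed arrays gave 3 at T1 and no T1_NPC comparison. With the neuron list subtracted the counts were 5 at T1, 7 at T2, 3 at T4, 5 at T8 and 0 for T2_NPC against T2, where 27723, 31275, 30201, 31381 and 118 of all 35469 features were called. For T8 against T1, scan session as a block gave 1, beside 6119 of all 35469 features, and it could not be fitted with the transplanted groups. For T1_NPC against T1, the brightest probe per gene gave 1, beside 4387 of all features, and single probes gave 2, beside 5135 of all 41012 probes. For T2_NPC against T2, the brightest probe, normexp background correction and slide as a random block gave 1 each. Of all features, 3516, 3609 and 1623 were called in these fits. Penk was lost there, at 0.11, 0.18 (limma adjusted p = 0.518) and 0.75 (limma adjusted p = 0.0534).

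Leaving out 1 array at a time, the counts against T0 ranged from 7 to 10 at T1, 9 to 9 at T2 and T4, 9 to 10 at T8, 5 to 8 in T1_NPC and 7 to 8 in T2_NPC. They ranged from 0 to 1 for T1_NPC against T1, and from 1 to 2 for T2_NPC against T2, where Penk was lost without replicate 3 of T2 or of T2_NPC. All other counts stayed at 0. The features called against T0, of 35469, ranged from 13758 to 15464 at T1, 12394 to 14224 at T2 and 11892 to 13476 at T4. They ranged from 12720 to 13748 at T8, 17158 to 18736 in T1_NPC and 15397 to 16815 in T2_NPC. For T1_NPC against T1 their range was 2890 to 4713, and for T2_NPC against T2 it was 1899 to 3409. With replicate number as a block (replicate block), the counts against T0 were 9, 10, 9, 10, 6 and 7. That for T2_NPC against T2 was 2, with 0 elsewhere. Of all features, 15337, 13876, 13175, 13793, 18384 and 16625 were called against T0 in that fit, and 2940 for T2_NPC against T2. Replicate numbers do not pair the arrays (correlations of deviations from -0.339 to 0.297).

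The only changes of sign among called values came from subtracting the neuron list, by construction of that scale. Calb1 was then at 0.27, 1.03, 0.49 and 0.49 at T1, T2, T4 and T8, 0.29 in T1_NPC and 0.93 in T2_NPC. Penk was at 0.76, 0.80, 0.66 and 0.89, and Pdyn at 0.91, 1.01, 0.48 and 0.65, with 0.64 in T2_NPC. Npy was at 0.72, 0.39 and 0.71 at T1, T4 and T8, Sst at 0.051, 0.025 and 0.37 at T2, T4 and T8, Gphn at 1.16 and 1.30 at T2 and T8, and Gad1 at 0.39 in T1_NPC and 0.035 in T2_NPC. Other causes were not tested.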
